A study of Danio rerio with 18 samples.

Results

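The comparison described here asked, for every gene, whether LPS changed its level differently at a challenge temperature of 32 °C than at 24 °C in zebrafish larvae that had been incubated at the same temperature. Its members are the 12 of 18 libraries whose labels give an incubation at 24 °C, in 4 groups of 3. These are LPS-challenged and control larvae moved to 32 °C at the first-feeding stage (24 × 32 °C) and LPS-challenged and control larvae kept at 24 °C (24 × 24 °C). All larvae came from wild-type AB fish, and each library holds the mRNA of 5 pooled whole larvae. The challenge lasted 24 h and used LPS from Pseudomonas aeruginosa, at 10 mg/L by the labels (the study's methods give the unit as µg/L), and control larvae received PBS. The LPS pools were drawn from larvae still alive at 24 h, which is a limit of these groups as a model of the challenge. This limit is not equal in the LPS groups. The study reports that more LPS larvae died at the warmer challenge than at the cooler one, and that few controls died. The LPS pools of the warmer challenge thus stand for a smaller surviving share, and the part of this difference in the interaction was not tested. For each gene, the log2 difference between LPS and control at 24 × 24 °C was subtracted from that at 24 × 32 °C. This difference of differences is called the interaction below, and a positive value means that LPS raised the gene more, or lowered it less, at 32 °C.

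LPS, a glycolipid that coats Gram-negative bacteria, sets off cytokine, chemokine and acute-phase genes in fish as in mammals. Much of what such a response secretes is made at the endoplasmic reticulum (ER), where chaperones and disulfide isomerases fold new chains, the oligosaccharyltransferase attaches N-glycans, and cargo receptors pass finished proteins to the Golgi. Proteins that fail to fold are drawn back to the cytosol and degraded by the proteasome, and a stressed ER switches on its chaperone genes through the unfolded protein response. In most fish, body temperature follows that of the water. A warmer challenge can thus also shift the levels of many genes in larvae that received no LPS.

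Library totals ran from 1868228 to 2825333 counts in the 24 × 32 °C LPS larvae and from 2405212 to 2897261 in their controls, and from 2088918 to 6679159 in the 24 × 24 °C LPS larvae and 5075072 to 8261920 in their controls. Low genes were therefore measured less precisely at 24 × 32 °C. Replicate libraries correlated across genes, on log2 CPM (counts scaled to the size of the library), at 0.9149 to 0.9505 in the 24 × 32 °C LPS larvae and at 0.9553 to 0.9634 in their controls, and at 0.9646 to 0.9812 in the 24 × 24 °C LPS larvae and 0.9782 to 0.9804 in their controls. Replicate 2 of the 24 × 32 °C LPS larvae had the most RNA of gut and liver genes in its group. Replicate 3 of that group was the highest in other genes, such as il1b and gsto2 (below). In the 24 × 24 °C LPS larvae, replicate 3 was the shallowest. The study's methods say that the experiment was repeated 3 times with broodstock picked at random. Nothing in the labels ties the 3 pools of a group to these repeats or to separate clutches. The p-values therefore measure the spread between these pools. Levels below are CPM per library after TMM scaling, and differences are log2 values with a standard error (SE) from edgeR.

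Of 15722 genes tested, 1 passed the edgeR quasi-likelihood test of the interaction (adjusted p under 0.05 and a difference of at least 1.5-fold, 0.00636% of genes), the ER disulfide isomerase gene PDIA3. DESeq2 on the same 18 libraries called 27 genes, 20 positive and 7 negative (0.127% and 0.0445% of genes). At an unadjusted p under 0.05, edgeR counted 714 positive and 472 negative genes (4.54% and 3%), together 7.54% of all genes tested. The edgeR count was 20 positive and 1 negative in a fit of the 12 libraries alone. It was 0 with the counts thinned to the depth of the smallest library, and also without both the 24 × 32 °C LPS replicate 2 and the 24 × 24 °C LPS replicate 3, a pair of libraries chosen for removal after seeing the data. The median SE of a gene's interaction was 0.349 on the log2 scale, so that most genes could have differed 1.5-fold without passing the test.

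The LPS effects that enter the interaction were called for 307 genes at 24 × 32 °C (214 up- and 93 down-regulated, 1.36% and 0.592% of genes) and for 67 genes at 24 × 24 °C (37 up- and 30 down-regulated, 0.235% and 0.191%). These unequal counts are no test of a difference, and the groups differ in depth. The median depth was higher in the 24 × 24 °C groups, where fewer genes were called. With all libraries thinned to the smallest, the counts were 237 at 24 × 32 °C and 33 at 24 × 24 °C. With each 24 × 32 °C control library left out in turn (replicates 1, 2 and 3), the count at 24 × 32 °C was 186, 93 and 104. For 24 × 24 °C, leaving out LPS replicate 2 or 3 gave 18 or 37, and control replicate 1 or 3 gave 19 or 36. Seen the other way, the interaction is the difference between 24 × 32 °C and 24 × 24 °C in LPS larvae minus that in control larvae. The first was called for 486 genes (254 higher and 232 lower at 24 × 32 °C, 1.62% and 1.48%) and the second for 976 genes (473 higher and 503 lower, 3.01% and 3.2%). The first count was 215 or 233 with 24 × 24 °C LPS replicate 1 or 2 left out. The second was 525, 557 and 590 without the 24 × 32 °C control replicates in turn, and 599, 597 and 400 without those of 24 × 24 °C. Each of these 4 contrasts shares libraries with the interaction, and each LPS effect shares libraries with both differences between temperatures. Their values are set side by side for each gene below and are not independent of the interaction.

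**Figure D1:**
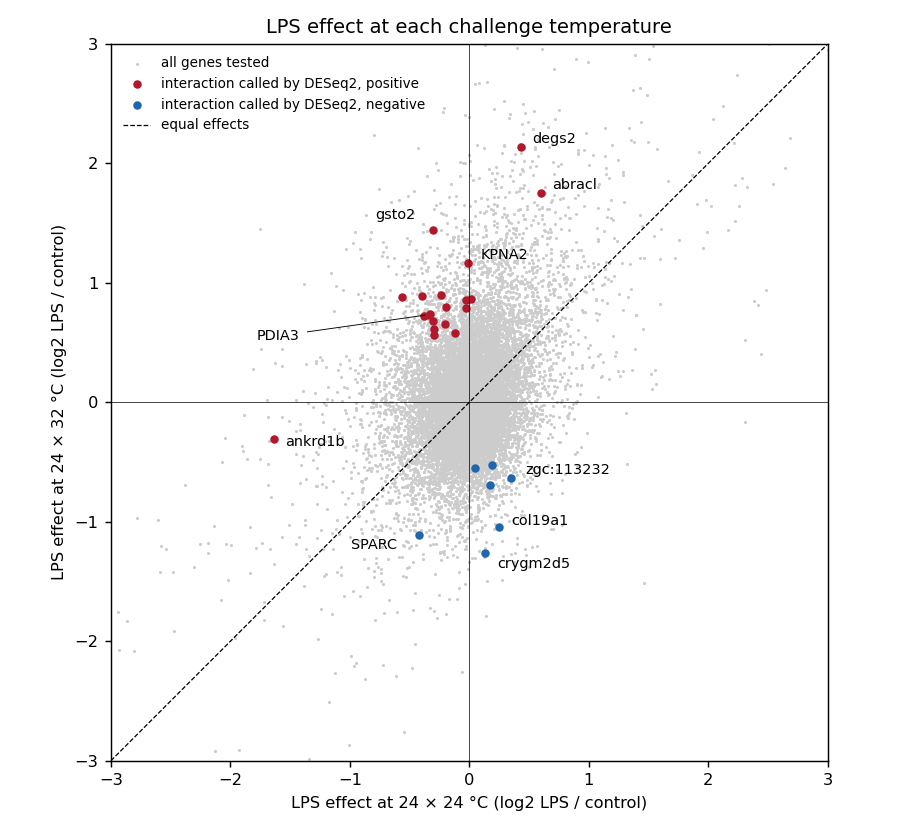
LPS effect at 24 × 32 °C (vertical axis, log2 of LPS over control) against that at 24 × 24 °C (horizontal axis) for all 15722 genes tested, with 43 genes beyond the axes and the 27 genes whose interaction DESeq2 called in colour. The 20 positive ones lie above the dashed line of equal effects and the 7 negative ones below it, which their choice fixes. LPS effects had opposite signs at the 2 temperatures in 16 of the 20 and 6 of the 7, against 6775 of all 15722 genes. Choosing genes by a large difference of the 2 effects itself favours opposite signs.

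PDIA3 (ENSDARG00000102640) encodes a protein disulfide isomerase that works on glycoproteins held by calnexin and calreticulin. It had 184, 206 and 181 CPM in the 24 × 32 °C LPS larvae and 126, 99.4 and 118 CPM in their controls. At the lower temperature it had 112, 125 and 128 CPM in LPS larvae and 147, 153 and 160 CPM in controls. The 24 × 32 °C LPS libraries were the highest of the 12 and overlapped no other group, while at 24 × 24 °C every LPS library lay below every control. Its LPS effect was 0.73 at 24 × 32 °C (SE 0.12, edgeR adjusted p = 0.00237) and -0.34 at 24 × 24 °C (SE 0.11, edgeR adjusted p = 0.329), an interaction of 1.07 (SE 0.16, edgeR adjusted p = 0.0281). The 24 × 32 °C level exceeded that at 24 × 24 °C by 0.65 in LPS larvae (edgeR adjusted p = 0.0022), and the same difference was -0.42 in controls (edgeR adjusted p = 0.0278, below the 1.5-fold threshold). The interaction of PDIA3 stayed between 0.97 and 1.14 when any one of the 12 libraries was left out. The call itself held without replicate 1 of either 24 × 32 °C group and ended without any of the other 10 libraries. The edgeR adjusted p was then 0.065 and 0.0588 without 24 × 32 °C LPS replicates 2 and 3, 0.121 and 0.136 without control replicates 2 and 3, 0.0795, 0.123 and 0.0994 without the 24 × 24 °C LPS replicates in turn, and 0.0776, 0.103 and 0.156 without their controls. For PDIA3, DESeq2 gave an adjusted p of 1.84e-07.

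Other genes of ER protein folding leaned the same way as PDIA3. Of 46 tested members of a list of ER chaperones and folding enzymes, 20 had a positive interaction at an unadjusted p under 0.05 and 0 a negative one, against 4.54% and 3% of all genes tested. In all, 42 of the 46 were positive, and their median interaction was 0.49, against 0.02 over all genes. DESeq2 called 5 of the members positive (0.127% of all genes), and edgeR 1, which was PDIA3 itself, also a member. The lists used here and below were chosen with earlier results of these data known, so their counts are a description. Members had a median LPS effect of 0.41 at 24 × 32 °C and -0.21 at 24 × 24 °C. LPS up-regulated 8 of them at 24 × 32 °C (1.36% of all genes) and 0 at 24 × 24 °C (0.235%). Between temperatures, their median difference was 0.18 in LPS larvae and -0.42 in controls, where 11 members were lower at 24 × 32 °C (3.2% of all genes) and 1 higher. The count of 20 ranged from 14 to 20 over all alternatives and libraries left out, and was 18 without the 2 libraries named above.

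The 4 other members called by DESeq2 differed in where the gap lay. CANX, the membrane-bound lectin chaperone calnexin, had 332, 364 and 342 CPM in the 24 × 32 °C LPS larvae and 174, 195 and 204 CPM in their controls. At 24 × 24 °C it had 244, 263 and 246 CPM in LPS larvae and 248, 251 and 268 CPM in controls. LPS libraries lay above all other libraries at 24 × 32 °C and control libraries below all others, while the 24 × 24 °C groups overlapped. Its LPS effect was 0.86 at 24 × 32 °C (edgeR adjusted p = 0.00143) and -0.02 at 24 × 24 °C, an interaction of 0.88 (SE 0.18, edgeR adjusted p = 0.138, DESeq2 adjusted p = 0.00339).

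The calreticulin-type chaperone gene calr3a had 148, 126 and 127 CPM in the 24 × 32 °C LPS larvae and 66.8, 82.9 and 90.7 CPM in their controls, and 102, 103 and 93 CPM in the 24 × 24 °C LPS larvae and 112, 113 and 151 CPM in their controls. The 24 × 32 °C controls were again the lowest of the 12 libraries. LPS raised it by 0.74 at 24 × 32 °C (edgeR adjusted p = 0.0134), its LPS effect at 24 × 24 °C was -0.33 (edgeR adjusted p = 0.626), and the interaction was 1.07 (SE 0.21, DESeq2 adjusted p = 0.00768). For pdia4, another disulfide isomerase, the values were 47.1, 45 and 48.5 CPM in the 24 × 32 °C LPS larvae and 26.1, 26.5 and 23.5 CPM in their controls. At 24 × 24 °C they were 36.2, 38.4 and 26.2 CPM in LPS larvae and 44.8, 38.62 and 67.6 CPM in controls, the control replicate 3 being the highest of all. The interaction of pdia4 was 1.44 (SE 0.28, DESeq2 adjusted p = 0.00979), from an LPS effect of 0.88 at 24 × 32 °C and -0.56 at 24 × 24 °C, and its controls were lower at 24 × 32 °C by 0.99 on the log2 scale (edgeR adjusted p = 0.00538). HSP90B1, the HSP90 of the ER, showed 192, 191 and 144 CPM in the 24 × 32 °C LPS larvae and 103, 118 and 107 CPM in their controls. It showed 115, 146 and 119.1 CPM in the 24 × 24 °C LPS larvae and 136, 139 and 194 CPM in their controls, where control replicate 3 lay above the other two. Its interaction was 0.98 (SE 0.22, DESeq2 adjusted p = 0.0211).

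HSPA5, the ER HSP70 that holds unfolded chains and restrains the stress sensors, was not called by either tool. It had 218, 178 and 149.9 CPM in the 24 × 32 °C LPS larvae and 114, 128 and 89.2 CPM in their controls, so that these groups did not overlap. At 24 × 24 °C it had 164, 224 and 174 CPM in LPS larvae and 189.9, 150.2 and 323 CPM in controls, where replicate 3 of the controls exceeded the next library by a wide margin. The interaction of HSPA5 was 0.95 (SE 0.32, edgeR adjusted p = 0.509) and 0.57 without that control library. In the same library, the summed level of the 12 mucin and goblet cell genes was 426.4 CPM, against 256.1 and 279.9 CPM in control replicates 1 and 2, and the part of gut content in these values was not tested. The list of sensors and effectors of the unfolded protein response had a median nearer to that of all genes. Of 34 genes for sensors, ER-associated degradation and the integrated stress response, 5 were positive and 0 negative at an unadjusted p under 0.05. These are 14.7% and 0%, against 4.54% and 3% of all genes, and the median was 0.12. The count of 5 was 2 without 24 × 32 °C LPS replicate 3, and 3 without 24 × 32 °C control replicate 2 or replicate 3 of either control group or of the 24 × 24 °C LPS larvae. In this list, xbp1, the transcription factor made by IRE1-dependent splicing, had an interaction of 0.47 (SE 0.20, edgeR adjusted p = 0.637). VCP, the ATPase that extracts misfolded proteins from the ER, had 0.52 (SE 0.16, edgeR adjusted p = 0.458). Counts here were of all transcripts of a gene, so spliced and unspliced xbp1 cannot be told apart.

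**Figure D2:**
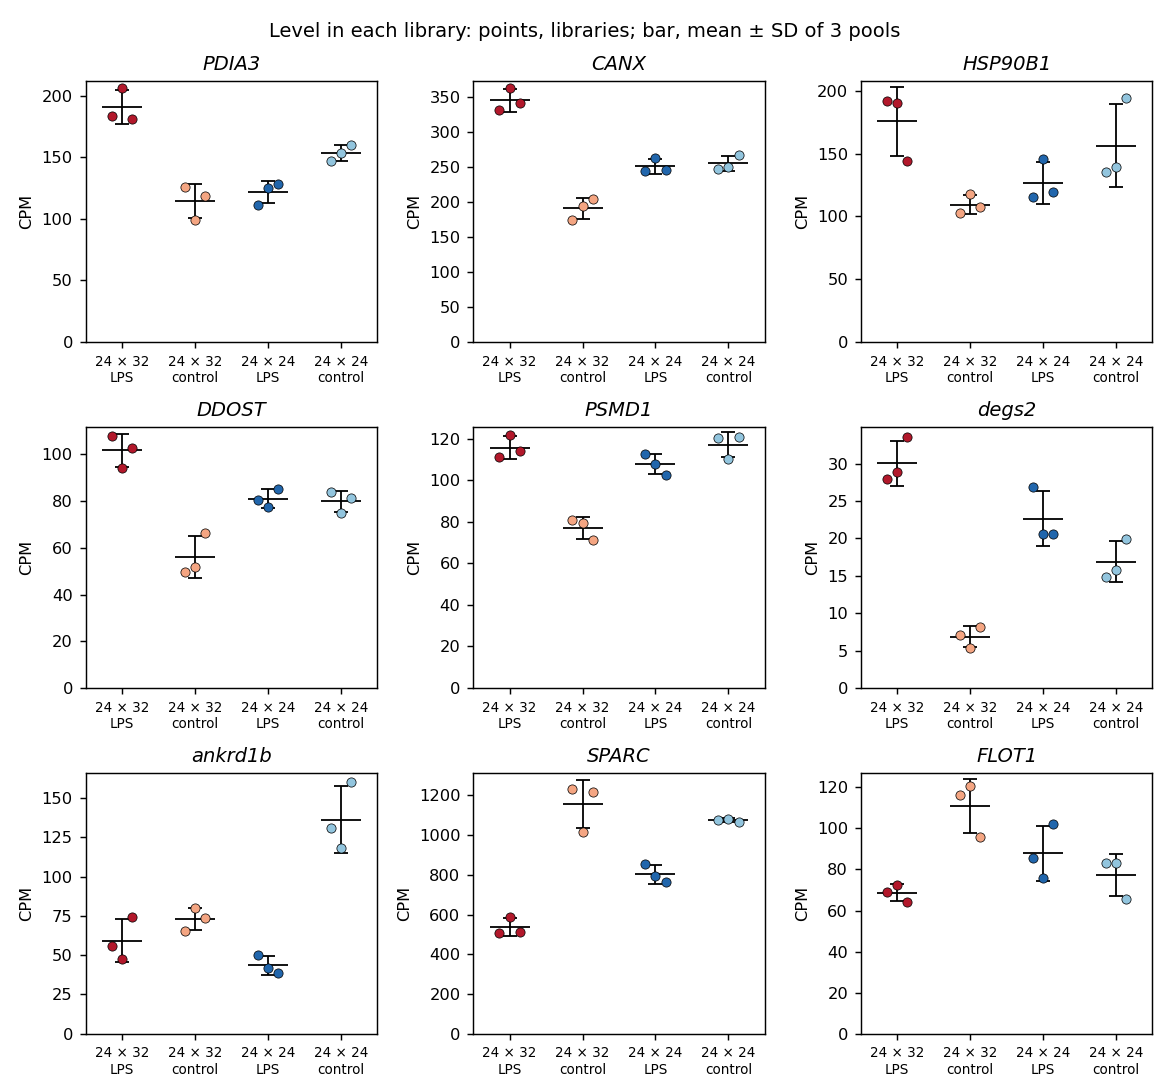
CPM of 9 genes whose interaction DESeq2 called, in each of the 12 libraries (points) with the mean and SD of 3 pools (bars), the groups being, from the left, 24 × 32 °C LPS, 24 × 32 °C control, 24 × 24 °C LPS and 24 × 24 °C control. In CANX, DDOST, PSMD1 and degs2 the 24 × 32 °C controls are the lowest group, in SPARC the 24 × 32 °C LPS larvae are, and in ankrd1b the 24 × 24 °C controls stand above the rest.

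Genes that act one step earlier in the secretory pathway leaned the same way. The list of the ER translocon and N-glycosylation held 37 tested genes. Of these, 14 were positive and 0 negative at an unadjusted p under 0.05 (4.54% and 3% of all genes). In all, 34 were positive, and the median interaction was 0.45. DESeq2 called 3 of the list positive (0.127% of all genes), all subunits of the oligosaccharyltransferase. DDOST had 108, 94.2 and 103 CPM in the 24 × 32 °C LPS larvae and 49.6, 51.8 and 66.2 CPM in their controls, while it had 80.6, 77.4 and 85.2 CPM in the 24 × 24 °C LPS larvae and 83.7, 75 and 81.3 CPM in their controls. The 24 × 32 °C LPS libraries were the highest and their controls the lowest, and the 24 × 24 °C groups overlapped. Its interaction was 0.85 (SE 0.20, DESeq2 adjusted p = 0.0183), with LPS effects of 0.87 at 24 × 32 °C (edgeR adjusted p = 0.00303) and 0.02 at 24 × 24 °C. For RPN1 and ostc, the interaction was 0.86 (SE 0.20, DESeq2 adjusted p = 0.0199) and 0.91 (SE 0.21, DESeq2 adjusted p = 0.046). LPS raised RPN1 at 24 × 32 °C (edgeR adjusted p = 0.0206), whereas ostc missed the threshold there (edgeR adjusted p = 0.0514) and was lower in controls at 24 × 32 °C, by 1.05 on the log2 scale (edgeR adjusted p = 0.000258). Another subunit gene, krtcap2, had 0.88 (SE 0.27, edgeR adjusted p = 0.458).

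Of 48 genes for vesicle coats and cargo receptors between the ER and the Golgi, 13 were positive and 0 negative at an unadjusted p under 0.05 (4.54% and 3% of all genes), with a median of 0.30. The count of 13 was 6 without 24 × 24 °C LPS replicate 3, and 8 without replicate 3 of the 24 × 32 °C LPS larvae, of their controls or of the 24 × 24 °C controls. They include tmed3 and tmed9 of the p24 family of cargo receptors, at 1.26 (SE 0.29, edgeR adjusted p = 0.215) and 0.69 (SE 0.20, edgeR adjusted p = 0.404), and kdelr2b, a receptor that returns ER residents, at 0.73 (SE 0.20, edgeR adjusted p = 0.378). LPS up-regulated tmed9 at 24 × 32 °C (edgeR adjusted p = 0.0123). The controls of all 3 genes were lower at 24 × 32 °C than at 24 × 24 °C, by 1.04 for tmed3 and 0.67 for tmed9 on the log2 scale, and by 0.84 for kdelr2b (edgeR adjusted p of 0.0045, 0.00624 and 0.00109). The N-acetylgalactosaminyltransferase gene galnt10, which starts O-glycans in the Golgi, had 10.5, 12.3 and 7.94 CPM in the 24 × 32 °C LPS larvae and 2.61, 4.22 and 3.36 CPM in their controls. At 24 × 24 °C it had 8.06, 4.79 and 6.16 CPM in LPS larvae and 8.66, 8.95 and 9.05 CPM in controls. Its 24 × 32 °C controls were the lowest group and overlapped no other, and its interaction was 2.06 (SE 0.39, edgeR adjusted p = 0.138).

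Proteasome subunits had small and even interactions, and their levels differed between temperatures mainly in controls. All 40 tested subunits were positive, with a median of 0.39 and quartiles of 0.33 and 0.49, 16 of them at an unadjusted p under 0.05 (4.54% of all genes) and 0 of the others negative. Their median LPS effect was 0.39 at 24 × 32 °C and -0.02 at 24 × 24 °C. Their median difference between temperatures was -0.05 in LPS larvae and -0.45 in controls, where 12 subunits were lower at 24 × 32 °C (3.2% of all genes). PSMD1, a large scaffold subunit of the 19S cap, had 111, 122 and 114 CPM in the 24 × 32 °C LPS larvae and 81, 79.5 and 71 CPM in their controls. It had 112, 108 and 103 CPM in the 24 × 24 °C LPS larvae and 120.3, 110.2 and 121 CPM in their controls. Its 24 × 32 °C controls stood below all 9 other libraries, which overlapped each other. Its LPS effect was 0.58 at 24 × 32 °C (edgeR adjusted p = 0.0123, just short of the 1.5-fold threshold), and the interaction was 0.70 (SE 0.16, DESeq2 adjusted p = 0.0134). PSMB4 and PSMB7 of the 20S core had 0.55 and 0.52 (edgeR adjusted p of 0.494 and 0.494). The count of 16 fell to 8 without the pair of libraries named above and to 6 in the least favourable single omission, that of 24 × 32 °C LPS replicate 3. It was 8 without 24 × 24 °C LPS replicate 3, 9 without replicate 1 of either control group and 10 without 24 × 24 °C control replicate 2, while the median stayed between 0.32 and 0.45.

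**Figure D3:**
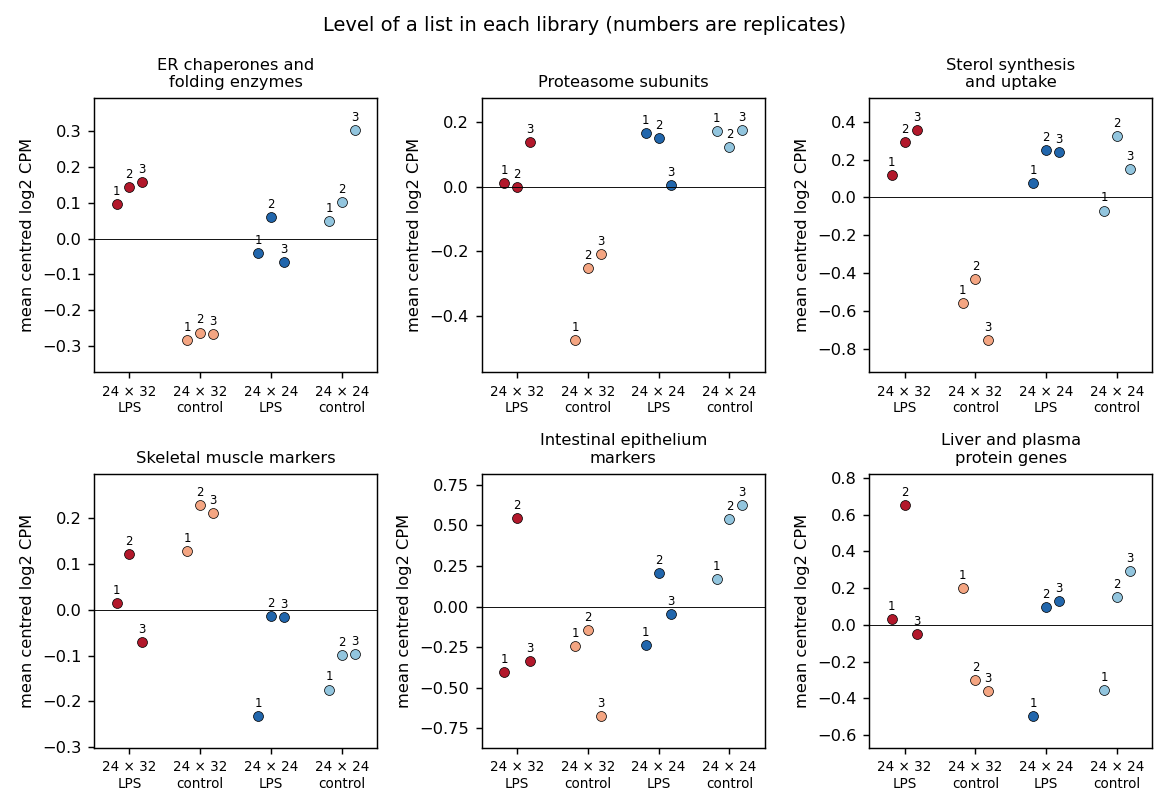
Level of 6 gene lists in each of the 12 libraries, as the mean over tested members of log2 CPM minus the member's mean over the 12 libraries, with groups as in the plot of single genes. ER chaperones lie at 0.097 to 0.159 in the 24 × 32 °C LPS larvae and -0.284 to -0.262 in their controls, whereas most groups overlap in the gut and liver lists, where 24 × 32 °C LPS replicate 2 is the highest of its group.

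Sterol genes had one of the largest median interactions, 0.84 over 32 tested genes of sterol synthesis and uptake. Of these, 7 were positive and 0 negative at an unadjusted p under 0.05 (4.54% and 3% of all genes). In all, 28 were positive. The count of 7 was 17 and 13 by edgeR and DESeq2 on the 12 libraries, and 5 to 9 with a library left out. LPS up-regulated 3 at 24 × 32 °C (1.36% of all genes) and 0 at 24 × 24 °C (0.235%), and 8 had lower levels in controls at 24 × 32 °C than at 24 × 24 °C (3.2% of all genes), with 0 lower in LPS larvae (1.48%). The median difference between temperatures was 0.17 in LPS larvae and -0.76 in controls. The sterol isomerase gene ebp had 5.81, 11.2 and 13.7 CPM in the 24 × 32 °C LPS larvae and 1.87, 2.69 and 3.36 CPM in their controls. It had 11.3, 15.8 and 12.3 CPM in the 24 × 24 °C LPS larvae and 10.0, 17.6 and 12.7 CPM in their controls. The 24 × 32 °C controls lay below every other library, and the interaction was 2.03 (SE 0.54, edgeR adjusted p = 0.348). For hsd17b7, a reductase of the same pathway, it was 1.73 (SE 0.53), and for the LDL receptor gene ldlrb 1.67 (SE 0.50), with edgeR adjusted p of 0.455 and 0.46. LPS up-regulated ebp, hsd17b7 and ldlrb at 24 × 32 °C, by 2.0003, 1.92 and 2.13 (edgeR adjusted p of 0.0224, 0.0224 and 0.0104). The sterol median was 0.63 without 24 × 32 °C LPS replicate 2, the library with more RNA of gut and liver, whose part in this list was not tested.

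Of 41 genes of fatty acid elongation, desaturation and ceramide synthesis, 6 were positive and 2 negative at an unadjusted p under 0.05 (4.54% and 3% of all genes), with a median of 0.37. The median was 0.23 without 24 × 32 °C LPS replicate 2 and 0.206 when 24 × 24 °C LPS replicate 3 was left out as well. Lipid and energy genes called by DESeq2 shared the low level of the 24 × 32 °C controls. degs2, a desaturase and hydroxylase of ceramide synthesis, had 27.9, 28.8 and 33.5 CPM in the 24 × 32 °C LPS larvae and 7.09, 5.37 and 8.15 CPM in their controls. At 24 × 24 °C it had 26.9, 20.6 and 20.5 CPM in LPS larvae and 14.8, 15.8 and 20.0 CPM in controls. No 2 groups overlapped, with LPS above control at both temperatures and the 24 × 32 °C controls lowest. Its LPS effect was 2.14 at 24 × 32 °C (edgeR adjusted p = 0.00206) and 0.43 at 24 × 24 °C (edgeR adjusted p = 0.877), and the interaction 1.71 (SE 0.43, DESeq2 adjusted p = 0.0481). etfdh, which passes electrons from fatty acid oxidation to ubiquinone, had 40.1, 35.4 and 34.8 CPM in the 24 × 32 °C LPS larvae and 16.4, 24.9 and 22.1 CPM in their controls. It had 48.8, 48.5 and 46.7 CPM in the 24 × 24 °C LPS larvae and 50.4, 58 and 56.4 CPM in their controls, so that its 24 × 24 °C larvae were the highest with or without LPS. Its controls were lower at 24 × 32 °C by 1.38 on the log2 scale (edgeR adjusted p = 8.43e-06), the difference in LPS larvae was -0.39 (edgeR adjusted p = 0.131), and the interaction was 0.99 (SE 0.21, DESeq2 adjusted p = 0.0152). The genes hadhab and hadhaa, which encode the alpha subunit of the mitochondrial trifunctional protein of fatty acid oxidation, had 0.72 and 0.81 (SE 0.19 and 0.23, edgeR adjusted p of 0.349 and 0.404), and LPS up-regulated both at 24 × 32 °C (edgeR adjusted p of 0.0132 and 0.00126). By contrast, 90 subunits of oxidative phosphorylation had a median interaction of -0.01, with 0 positive and 1 negative at an unadjusted p under 0.05.

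In the list of 83 tested glutathione, thioredoxin and antioxidant genes, 20 were positive and 1 negative at an unadjusted p under 0.05 (4.54% and 3% of all genes), with a median of 0.39. The count of 20 was 11 without 24 × 32 °C control replicate 2, 12 without 24 × 24 °C control replicate 2 or 3 and 13 without 24 × 24 °C LPS replicate 3, and 32 by edgeR on the 12 libraries. DESeq2 called 2 of the 83 positive (0.127% of all genes). idh1, the cytosolic isocitrate dehydrogenase that yields NADPH, had 111, 156 and 126 CPM in the 24 × 32 °C LPS larvae and 67.5, 72.5 and 71.5 CPM in their controls. It had 112, 126 and 96 CPM in the 24 × 24 °C LPS larvae and 118, 142 and 135 CPM in their controls, and the 24 × 32 °C controls stood below the other 9 libraries. Its interaction was 1.13 (SE 0.26, DESeq2 adjusted p = 0.0199). gsto2, a glutathione transferase of the omega class, had 67.4, 60.34 and 135 CPM in the 24 × 32 °C LPS larvae and 31.7, 34.2 and 30.7 CPM in their controls. Replicate 3 of the LPS larvae held about as many CPM as the other two together. Its interaction was 1.75 (SE 0.48, DESeq2 adjusted p = 0.043), and 1.28 in the lowest fit with a library left out. keap1a, which restrains the antioxidant transcription factor Nrf2, had 1.08 and the quinone reductase gene NQO1 0.70 (edgeR adjusted p of 0.404 and 0.477).

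Cell cycle genes leaned positive too. Of 84 tested genes of the cell cycle and DNA replication, 19 were positive and 0 negative at an unadjusted p under 0.05. Over all genes, these shares were 4.54% and 3%. In the list, 75 were positive in all, and the median was 0.48. The median LPS effect was 0.36 at 24 × 32 °C and -0.18 at 24 × 24 °C, and in controls 9 members were lower at 24 × 32 °C (3.2% of all genes). The mitotic spindle gene dlgap5 had 14.5, 19.6 and 16.3 CPM in the 24 × 32 °C LPS larvae and 7.84, 9.21 and 8.15 CPM in their controls. At 24 × 24 °C it averaged 10.4 ± 1.87 CPM in LPS larvae and 15.2 ± 1.67 CPM in controls (SD, n = 3 each), without overlap. Its interaction was 1.51 (SE 0.30, edgeR adjusted p = 0.138). For bub1 of the spindle checkpoint, the kinase genes plk1 and CDK1 and the kinetochore motor gene cenpe, the interaction was 1.54, 1.26, 1.1196 and 1.22 (edgeR adjusted p of 0.37, 0.412, 0.458 and 0.456). KPNA2, an importin that carries cargo into the nucleus, was called by DESeq2 at 1.18 (SE 0.28, DESeq2 adjusted p = 0.0396) and was up-regulated by LPS at 24 × 32 °C (edgeR adjusted p = 0.00549). The count of 19 was 9 without the 2 libraries named above and 30 without 24 × 32 °C control replicate 3, and the level of the list in the 24 × 32 °C controls ran from -0.594 in replicate 1 to -0.003 in replicate 3.

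Other positive genes fell outside these lists. actr3, a subunit of the Arp2/3 complex that nucleates branched actin, had 116, 108 and 100.5 CPM in the 24 × 32 °C LPS larvae and 72, 74.1 and 73.9 CPM in their controls. Its interaction was 0.85 (SE 0.18, DESeq2 adjusted p = 0.0145), and this gene (ENSDARG00000100510) shares its symbol with another gene ID, so that reads may be split between copies. abracl rose with LPS by 1.76 at 24 × 32 °C (edgeR adjusted p = 0.000132), and its LPS effect at 24 × 24 °C was 0.60 (edgeR adjusted p = 0.196), an interaction of 1.15 (SE 0.27, DESeq2 adjusted p = 0.043). OSTF1 and the sulfotransferase gene sult6b1 were also called positive by DESeq2, at 1.1033 and 1.28 (DESeq2 adjusted p of 0.0208 and 0.0461), as was ankrd1b. ankrd1b encodes an ankyrin repeat protein of striated muscle and mechanical stress, and it differed from the others in its pattern. It had 55.8, 47.7 and 74.1 CPM in the 24 × 32 °C LPS larvae and 65.7, 79.8 and 73.9 CPM in their controls, which overlapped. It had 50.2, 42 and 38.5 CPM in the 24 × 24 °C LPS larvae and 131, 118 and 160 CPM in their controls. Here the gap lay at the lower temperature, where LPS lowered it by 1.63 on the log2 scale (edgeR adjusted p = 0.000327), and its LPS effect at 24 × 32 °C was -0.31 (edgeR adjusted p = 0.447). The interaction of ankrd1b was 1.33 (SE 0.27, DESeq2 adjusted p = 0.00979). One uncharacterised gene, si:ch211-266i6.3, ranked second by edgeR's p, with 12.2, 18.1 and 27.8 CPM in the 24 × 32 °C LPS larvae and 3.36, 4.61 and 2.4 CPM in their controls. Its interaction was 2.68 (SE 0.45, edgeR adjusted p = 0.0546), and it was called in 4 of 20 alternative fits.

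Fewer genes had a negative interaction than a positive one. SPARC, a collagen-binding matrix protein, had 508, 587 and 510.2 CPM in the 24 × 32 °C LPS larvae and 1231, 1017 and 1217 CPM in their controls. It had 855, 793 and 762 CPM in the 24 × 24 °C LPS larvae and 1075, 1083 and 1064 CPM in their controls. LPS libraries lay below controls at both temperatures without overlap, and the gap was wider at 24 × 32 °C. LPS lowered it there by 1.11 on the log2 scale (edgeR adjusted p = 6.25e-05), its LPS effect at 24 × 24 °C was -0.42 (edgeR adjusted p = 0.157), and the interaction was -0.69 (SE 0.17, DESeq2 adjusted p = 0.0259). The cartilage genes MATN3, a matrilin, and epyc, a small leucine-rich proteoglycan, had -0.71 (DESeq2 adjusted p = 0.0272) and -0.76 (DESeq2 adjusted p = 0.081). The symbol MATN3 belongs to more than 1 gene ID, and the values are those of ENSDARG00000069245. In these 2 genes the LPS larvae differed between temperatures, by -0.85 and -0.80 (edgeR adjusted p of 0.000415 and 0.00243), while the controls had -0.13 and -0.04. The other tested ID under the symbol MATN3 was not called in any fit. Its interaction lay between -0.42 and -0.05 over the alternatives.

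The collagen gene col19a1 (ENSDARG00000076163, also with a shared symbol) had 16.3, 16.5 and 18.5 CPM in the 24 × 32 °C LPS larvae and 37, 29.2 and 40.3 CPM in their controls. It had 16.1, 16.8 and 20.0 CPM in the 24 × 24 °C LPS larvae and 14.1, 14.8 and 14.9 CPM in their controls, so that the 24 × 32 °C controls stood above all other libraries. Its interaction was -1.29 (SE 0.27, DESeq2 adjusted p = 0.0199). Of 48 collagen chains tested, 1 was positive and 4 were negative at an unadjusted p under 0.05 (4.54% and 3% of all genes). Their median was 0.04. The positive count was 4 without 24 × 32 °C LPS replicate 3, and the negative one 8 without both 24 × 32 °C LPS replicate 2 and 24 × 24 °C LPS replicate 3. FLOT1, a scaffold of membrane rafts, had 69.2, 72.6 and 64.4 CPM in the 24 × 32 °C LPS larvae and 116, 120.5 and 95.9 CPM in their controls. Its LPS effect was -0.69 at 24 × 32 °C (edgeR adjusted p = 0.0153) and 0.17 at 24 × 24 °C (edgeR adjusted p = 0.956), an interaction of -0.87 (SE 0.20, DESeq2 adjusted p = 0.0364). Of the negative interactions called by DESeq2, those of zgc:113232 and si:ch73-367p23.2 belong to uncharacterised genes, at -0.98 and -0.60 (DESeq2 adjusted p of 0.0167 and 0.00979).

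Lens, skeletal muscle, nerve and eye lists had negative median interactions, whereas the list of heart muscle markers did not. Of its 17 tested members 11 were positive. At an unadjusted p under 0.05, 1 was positive and 0 negative (4.54% and 3% of all genes). The heart list had a median of 0.15, and of 0.013 without both 24 × 32 °C LPS replicate 2 and 24 × 24 °C LPS replicate 3. Of 43 tested lens crystallin genes, 2 were positive, and the median interaction was -0.54, with 1 positive and 5 negative at an unadjusted p under 0.05 (4.54% and 3% of all genes). crygm2d5 had 76.7, 49.2 and 69.7 CPM in the 24 × 32 °C LPS larvae and 119.8, 139 and 209 CPM in their controls, and an interaction of -1.39 (SE 0.35, DESeq2 adjusted p = 0.043). Many gamma-M crystallin genes are close copies of each other, reads may be split between them, and members are then not separate observations. The crystallin median was -0.20, with 1 negative member at an unadjusted p under 0.05, without both 24 × 32 °C LPS replicate 2 and 24 × 24 °C LPS replicate 3, and -0.71 with 21 negative members without 24 × 32 °C LPS replicate 3. With other single libraries left out the negative count was 2 to 6. In controls, 10 crystallin genes were higher at 24 × 32 °C (3.01% of all genes). Of 56 skeletal muscle markers, 15 were negative and 0 positive at an unadjusted p under 0.05 (3% and 4.54% of all genes). The median of these markers was -0.32. Their median difference between temperatures was 0.17 in LPS larvae, with 3 called higher at 24 × 32 °C and 1 lower (1.62% and 1.48% of all genes), and 0.42 in controls, with 13 called higher and 2 lower (3.01% and 3.2%). The actin gene acta1a had 774, 832 and 650.5 CPM in the 24 × 32 °C LPS larvae and 532, 704 and 791 CPM in their controls. It had 354, 400.3 and 400.1 CPM in the 24 × 24 °C LPS larvae and 209, 250.4 and 157 CPM in their controls. LPS raised it at 24 × 24 °C by 0.91 (edgeR adjusted p = 0.0162), its LPS effect at 24 × 32 °C was 0.15, and the interaction was -0.75 (SE 0.25, edgeR adjusted p = 0.48). smyd1b, a methyltransferase that helps myosin fold in muscle, had 48.2, 45.4 and 42.3 CPM in the 24 × 32 °C LPS larvae and 139.6, 95.2 and 140.5 CPM in their controls. Its controls were higher at 24 × 32 °C by 1.65 (edgeR adjusted p = 3.98e-06), and its interaction was -0.94 (SE 0.24, edgeR adjusted p = 0.298). The skeletal muscle count of 15 was 6 without the 2 libraries named above, 4 without 24 × 32 °C control replicate 3, 8 when 24 × 24 °C control replicate 1 was left out, and 7 without 24 × 24 °C LPS replicate 2 or replicate 3 of the 24 × 32 °C LPS larvae, the 24 × 24 °C LPS larvae or the 24 × 24 °C controls. For the 44 neuron and glia markers, 0 were positive and 6 negative (4.54% and 3% of all genes, median -0.27), the neurofilament gene nefmb among them at -0.88 (SE 0.24, edgeR adjusted p = 0.378). The negative count of these markers was 1 when 24 × 32 °C control replicate 2 was left out, and 3 without 24 × 32 °C LPS replicate 1 or replicate 3 of the 24 × 32 °C controls, the 24 × 24 °C LPS larvae or the 24 × 24 °C controls, and 11 by DESeq2 on the 12 libraries. For 57 phototransduction and photoreceptor genes, 2 were positive and 6 negative (4.54% and 3% of all genes, median -0.28). The negative count was 2 when 24 × 24 °C control replicate 3 was left out. The cone transducin genes GNAT2 and gnb3b had -0.61 and -0.65 (edgeR adjusted p of 0.52 and 0.547). In whole larvae, fewer cells of a type and less RNA per cell cannot be told apart.

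**Figure D4:**
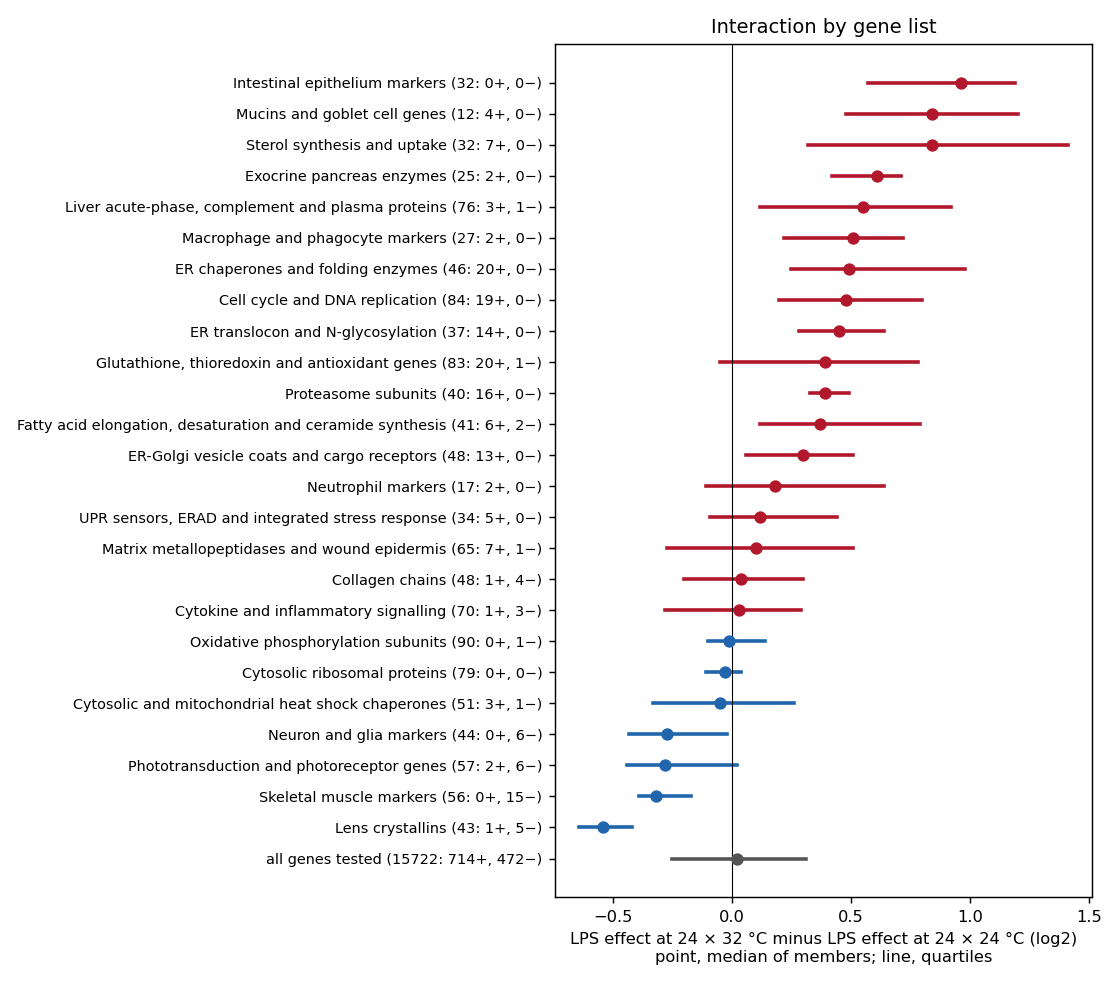
Interaction by gene list on the log2 scale, as the median over tested members (point) with quartiles (line), with the number tested and the numbers positive and negative at an unadjusted p under 0.05 beside each name. The chaperone, translocon, ER-Golgi, proteasome, sterol and cell cycle lists lie at 0.30 or higher, the muscle and lens lists at -0.32 and -0.54, and oxidative phosphorylation, ribosomal protein and cytokine lists within 0.03 of 0, near the median of 0.02 over all genes.

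The median interaction of the list of inflammatory genes lay near that of all genes. Of 70 tested genes of cytokine and inflammatory signalling, 1 was positive and 3 negative at an unadjusted p under 0.05. These are 1.43% and 4.29%, against 4.54% and 3% of all genes. Without 24 × 32 °C LPS replicate 3, 9 were negative. The median interaction was 0.03, with median LPS effects of 0.20 at 24 × 32 °C and 0.17 at 24 × 24 °C. LPS up-regulated 2 members and down-regulated 1 at 24 × 32 °C (1.36% and 0.592% of all genes). At 24 × 24 °C it up-regulated 4 and down-regulated 0 (0.235% and 0.191%). Between temperatures, 0 members were higher and 4 lower at 24 × 32 °C in LPS larvae (1.62% and 1.48% of all genes). In controls, 0 were higher and 2 lower (3.01% and 3.2%). A list of 47 tested immediate early genes (AP-1, EGR and others) had a median of -0.16, with 13 positive in all. At an unadjusted p under 0.05, 0 were positive and 2 negative (4.54% and 3% of all genes), with 0 to 8 negative over the alternatives. Their median LPS effects were 0.13 at 24 × 32 °C and 0.3 at 24 × 24 °C. The median was -0.06 without 24 × 32 °C control replicate 1. The cytokine gene il1b had 6.39, 2.69 and 27.8 CPM in the 24 × 32 °C LPS larvae and 2.24, 3.84 and 1.92 CPM in their controls. It had 34.6, 39.2 and 28.2 CPM in the 24 × 24 °C LPS larvae and 4.62, 3.88 and 3.17 CPM in their controls, so that LPS and control were apart at 24 × 24 °C and overlapped at 24 × 32 °C, where replicate 3 of the LPS larvae was far above the others. LPS raised il1b at 24 × 24 °C by 3.16 (edgeR adjusted p = 0.0157), its LPS effect at 24 × 32 °C was 2.18 (edgeR adjusted p = 0.156), and the interaction was -0.98 (SE 1.0013, edgeR adjusted p = 0.842). With that SE, an interaction of either sign is compatible with the data. The chemokine gene cxcl8a, with few counts, averaged 2.45 ± 2.18 CPM in the 24 × 32 °C LPS larvae and 1.97 ± 0.88 CPM in their controls (SD, n = 3 each), which overlapped. It had 5.94, 8.9 and 4.62 CPM in the 24 × 24 °C LPS larvae and 1.16, 0.746 and 1.65 CPM in their controls, without overlap, and its interaction was -2.04 (SE 0.78, edgeR adjusted p = 0.573), from a rise with LPS at 24 × 24 °C of 2.44 (edgeR adjusted p = 0.0117). socs3b, a brake on cytokine receptors, had -0.62 (SE 0.38), and its LPS larvae were lower at 24 × 32 °C than at 24 × 24 °C by 1.29 on the log2 scale (edgeR adjusted p = 0.00914).

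Of 65 matrix metallopeptidase and wound epidermis genes, 7 were positive and 1 negative at an unadjusted p under 0.05 (4.54% and 3% of all genes). Their median was 0.10, and it changed sign with single libraries left out. It was -0.056 without 24 × 32 °C LPS replicate 3 and -0.009 without 24 × 24 °C control replicate 3. The prostaglandin synthase gene ptgs2b rose by 3.45 at 24 × 32 °C and 3.04 at 24 × 24 °C (edgeR adjusted p of 0.0237 and 0.0223), and its interaction was 0.41 (SE 0.93). The gelatinase gene mmp9 rose by 3.19 and 2.55 (edgeR adjusted p of 0.0173 and 0.0281), with an interaction of 0.64 (SE 0.77). In controls its level was lower at 24 × 32 °C by 2.32 on the log2 scale (edgeR adjusted p = 0.032). igfbp1a, an insulin-like growth factor binding protein gene, rose by 2.1745 and 2.22 (edgeR adjusted p of 0.019 and 0.016), with an interaction of -0.04 (SE 0.58). A large interaction that neither tool called on the 18 libraries was that of irg1l, a relative of the mammalian gene whose enzyme makes itaconate in activated macrophages. It had 162, 116 and 219 CPM in the 24 × 32 °C LPS larvae and 14.6, 23.8 and 19.7 CPM in their controls. It had 78.7, 118 and 102 CPM in the 24 × 24 °C LPS larvae and 169, 37.1 and 209.7 CPM in their controls, with control replicate 2 at 24 × 24 °C far below replicates 1 and 3. The interaction of irg1l was 3.58 (SE 1.0955, edgeR adjusted p = 0.486). DESeq2 on the 12 libraries called irg1l (adjusted p = 0.00262), and on the 18 libraries its adjusted p was 0.0966.

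Many heat shock genes were higher at 24 × 32 °C in both kinds of larvae. Of 51 cytosolic and mitochondrial heat shock chaperones, 14 were called higher at 24 × 32 °C in LPS larvae (1.62% of all genes) and 18 in controls (3.01%), with medians of 0.59 and 0.49. The positive count of their interactions was 6 without 24 × 32 °C control replicate 1, and the negative count 4 without 24 × 32 °C LPS replicate 1. With all libraries, their median interaction was -0.05. Then 3 were positive and 1 negative at an unadjusted p under 0.05 (4.54% and 3% of all genes). The negative one was the inducible HSP70 gene hspa1b, which had 13.4, 10.8 and 10.6 CPM in the 24 × 32 °C LPS larvae and 403, 38.4 and 47.5 CPM in their controls, against 2.54, 3.77 and 1.03 CPM in the 24 × 24 °C LPS larvae and 2.31, 2.09 and 2.59 CPM in their controls. Control replicate 1 at 24 × 32 °C held most of the difference in level, yet controls 2 and 3 also lay above the LPS libraries. Its interaction was -4.08 (SE 1.54, edgeR adjusted p = 0.602) and -2.13 without that library. HSPD1, the mitochondrial HSP60, had 0.71 (SE 0.23, edgeR adjusted p = 0.477) and was up-regulated by LPS at 24 × 32 °C (edgeR adjusted p = 0.0125). Of 79 cytosolic ribosomal proteins, 0 passed in either direction, with a median of -0.03, and their median difference between temperatures was 0.34 in LPS larvae and 0.37 in controls.

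Lists of gut, liver and pancreas genes moved with single libraries, and their part in the results above was not tested. The 32 intestinal epithelium markers had the highest median interaction, 0.96, with 30 positive. Yet 0 passed an unadjusted p of 0.05 in either direction on the 18 libraries (4.54% and 3% of all genes). On the 12 libraries, 12 were positive at that threshold by edgeR and 11 by DESeq2, and 0 to 2 with a library left out of the 18. Their summed level was 1370, 2780 and 1517 CPM in the 24 × 32 °C LPS larvae and 1429, 1777 and 1214 CPM in their controls. It was 1361, 1751 and 1799 CPM in the 24 × 24 °C LPS larvae and 1940, 2587 and 2376 CPM in their controls. Without 24 × 32 °C LPS replicate 2, the median was 0.43. The 76 liver and plasma protein genes had a median of 0.55 and 0.23 without that library, in which their sum was 11950 CPM, against 6621 and 7303 CPM in LPS replicates 1 and 3. For the 25 exocrine pancreas enzymes the median was 0.61. It was 0.22 when 24 × 32 °C control replicate 3 was left out and 1.23 when control replicate 1 was. For the ER chaperone list, the median was 0.47 without both 24 × 32 °C LPS replicate 2 and 24 × 24 °C LPS replicate 3, and its summed level was 2478, 2620 and 2429 CPM in the 24 × 32 °C LPS larvae and 1816, 1859 and 1866 CPM in their controls. The 24 × 24 °C sums were 2066, 2277 and 2070 CPM with LPS and 2254, 2302 and 2767 CPM in controls.

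Of the mucin and goblet cell genes, 4 of 12 were positive at an unadjusted p under 0.05 (4.54% of all genes). All 12 were positive, with a median of 0.84. Without 24 × 24 °C control replicate 3 the count was 1 and the median 0.66, and without 24 × 32 °C LPS replicate 3 the count was also 1. The gel-forming mucin gene muc5.1 had 10.5, 14.6 and 14.6 CPM in the 24 × 32 °C LPS larvae and 51.5, 27.6 and 27.8 CPM in their controls. It had 6.78, 10.8 and 10.27 CPM in the 24 × 24 °C LPS larvae and 34.1, 45.8 and 70.5 CPM in their controls. LPS libraries lay below controls at both temperatures, by an LPS effect of -1.42 at 24 × 32 °C (edgeR adjusted p = 0.185) and -2.48 at 24 × 24 °C (edgeR adjusted p = 0.0386), and the interaction was 1.06 (SE 0.72). Another of them, muc5.2, fell at both temperatures, with LPS effects of -3.31 and -3.89 (edgeR adjusted p of 0.0179 and 0.00151) and an interaction of 0.58 (SE 1.02). The 27 macrophage and phagocyte markers had a median of 0.51 with 2 positive and 0 negative at an unadjusted p under 0.05, and the 17 neutrophil markers one of 0.18, also with 2 and 0 (4.54% and 3% of all genes). The macrophage median was 0.315 without 24 × 32 °C LPS replicate 3, 0.33 without replicate 2 of that group and 0.333 without 24 × 24 °C control replicate 3, and the neutrophil median ranged from 0.012 without 24 × 24 °C LPS replicate 1 to 0.45 without 24 × 32 °C LPS replicate 1. In the neutrophil list, 12 of the 17 members were positive and 5 were not, with quartiles of -0.11 and 0.64. A member well above these quartiles was the NADPH oxidase subunit gene cyba, which does not stand for the list. It had 33.1, 23.8 and 37.5 CPM in the 24 × 32 °C LPS larvae and 11.6, 12.3 and 16.3 CPM in their controls. The interaction of cyba was 1.41 (SE 0.37, edgeR adjusted p = 0.349).

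The share of genes that differed more between temperatures in controls was somewhat higher among positive interactions than among all genes. Of the 714 genes with a positive interaction at an unadjusted p under 0.05, 428 (59.9%) differed more between temperatures in controls than in LPS larvae, against 51.8% of all genes tested. Their median difference between temperatures was 0.41 in LPS larvae and -0.59 in controls, and their median LPS effect was 0.74 at 24 × 32 °C and -0.17 at 24 × 24 °C. For the 472 negative genes, 235 (49.8%) differed more in controls, with medians of -0.37 in LPS larvae and 0.35 in controls. Among the DESeq2 calls, the share was 14 of 20 positive genes and 3 of 7 negative ones. These genes were chosen by the interaction, which uses the same libraries and fixes the signs of such medians. The shares are given as a description, and their difference from that of all genes was not tested.

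**Figure D5:**
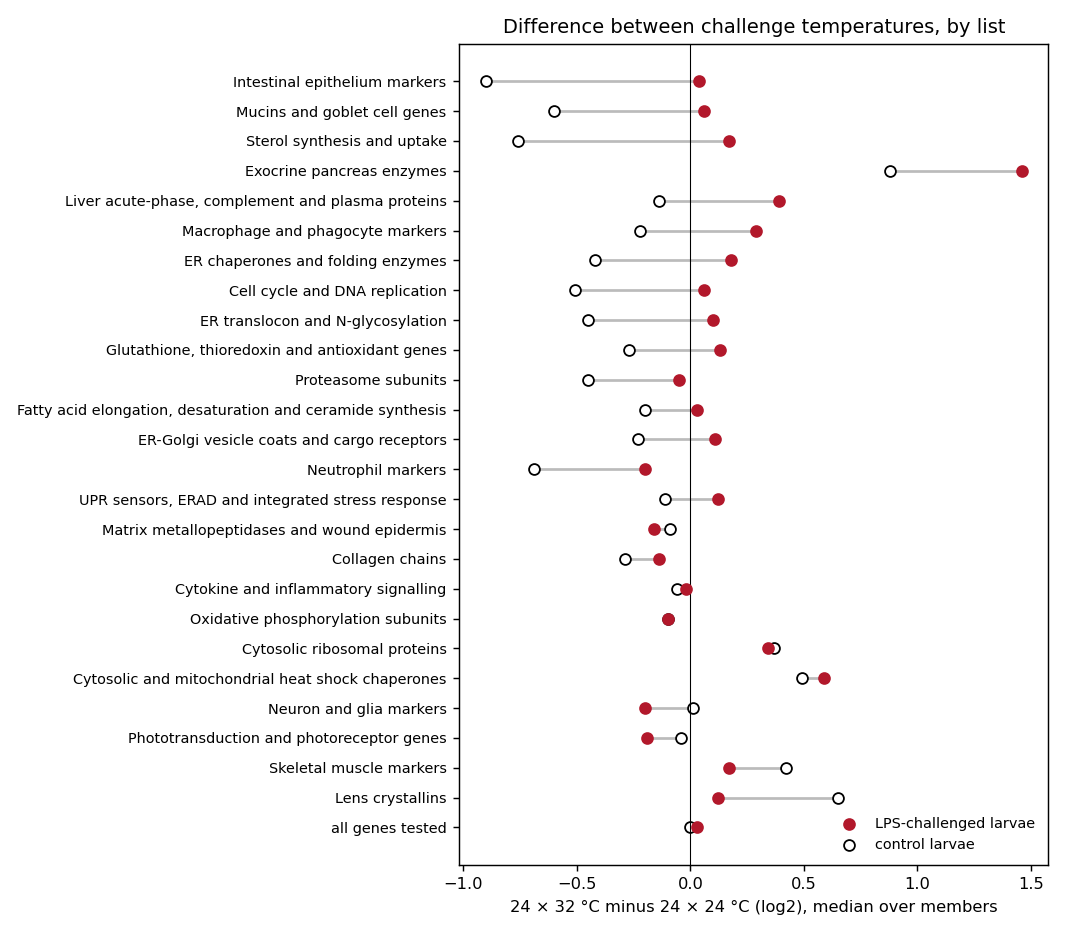
Median difference between 24 × 32 °C and 24 × 24 °C on the log2 scale for each gene list, in LPS-challenged larvae (filled points) and in control larvae (open points), joined by a grey line. For ER chaperones the points lie at 0.18 and -0.42, for proteasome subunits at -0.05 and -0.45, for skeletal muscle markers at 0.17 and 0.42, and for heat shock chaperones at 0.59 and 0.49.

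In the third temperature combination of the series, 32 × 24 °C, where larvae were moved from a warm incubation to a cool challenge, the LPS effect had a median of -0.07 over the ER chaperones and -0.06 over the proteasome subunits. PDIA3 had an LPS effect of -0.14 there (SE 0.12, edgeR adjusted p = 1). Whether these effects differ from those at 24 × 32 °C was not tested.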

How the data were processed

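Whole-larva mRNA was sequenced in 18 libraries, each of 5 pooled larvae, and 12 of them (4 groups of 3) enter the comparison. Per the study's methods and processing notes, the authors demultiplexed reads with bcl2fastq, checked them with FastQC 0.11.5, trimmed them with cutadapt 1.12, aligned them to GRCz10 with TopHat2 2.1.0 and SAMtools and deposited whole-number counts per gene from HTSeq 0.6.1p1, which are not normalised. HTSeq's strand setting was not stated in the sources used here. The authors' own tests were not used.

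All 18 libraries were fitted in edgeR 4.0.16 (R 4.3.3) by the quasi-likelihood test with 6 group means, TMM scaling and filterByExpr, which kept 15722 of 31624 genes. The spread is thus shared with the third temperature combination. A call needed a Benjamini-Hochberg adjusted p under 0.05 over all genes tested and a difference of at least 1.5-fold. Alternatives were DESeq2 1.42.0, fits of the 12 libraries, DESeq2 size factors, no filter on low counts, no fold threshold, thinning to the smallest library, the replicate number as a block, and each of the 12 libraries left out. The fits were tested on simulated data. Genes were named by these rules: calls of either tool, the 12 smallest interaction p per direction among genes with a symbol and at least 5 CPM, up to 4 members per gene list, and genes discussed in the study's text for these larvae. Names came from a gene table for 24884 IDs and from the study's supplement for 1310. One called gene is not reported here. The comparison, lists and members were chosen with earlier results of these data known.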

Additional observations from a re-analysis of the deposited data

Results flagged for a closer look

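The LPS effect on PDIA3 differed between the challenge temperatures by the edgeR test of the difference itself, the only call among 15722 genes tested. Its levels in the libraries are those this test used, so they are no separate support. The effect was 0.73 at 24 × 32 °C and -0.34 at 24 × 24 °C on the log2 scale, a difference of 1.0745 (edgeR quasi-likelihood test, adjusted p = 0.0281), with the LPS pools above all 3 controls at 24 × 32 °C and below all 3 at 24 × 24 °C. Groups of 3 pools were not screened for single outlying samples by a fixed rule, but each of the 12 libraries was left out in turn. Over 20 alternatives the PDIA3 call was lost in 12, most of them fits with a single library left out. The edgeR adjusted p was then up to 0.156.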

How the results depend on the processing

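The count of 1 interaction call was also 1 with DESeq2 size factors and with no fold threshold. It was 2 with no filter on low counts, 27 by DESeq2 on 18 libraries, 21 and 108 by edgeR and DESeq2 on the 12 libraries, and 0 after thinning. It was 0 without both 24 × 32 °C LPS replicate 2 and 24 × 24 °C LPS replicate 3, an alternative added after seeing the data. With single libraries left out it ranged from 0 to 2, and the count at an unadjusted p under 0.05, 1186, from 811 to 1652. The LPS calls at 24 × 32 °C, 307, were 472 by DESeq2 on 18 libraries, 604 and 679 by edgeR and DESeq2 on the 12, and 93 to 355 with a library left out. The 67 calls at 24 × 24 °C were 137, 192 and 243 in the same 3 fits, 33 after thinning and 18 to 90 with a library left out. Between temperatures, the 486 calls in LPS larvae were 770 and 775 by edgeR and DESeq2 on the 12 libraries and 215 to 586 with a library left out, and the 976 in controls were 646 after thinning and 400 to 1118. The fits of the 12 libraries lack the third temperature combination, and thinning lowers the counts. The common biological coefficient of variation, edgeR's shared measure of spread between replicates, was 0.176 on the 18 libraries and 0.152 on the 12. Its part in the shifts was not tested, nor was the cause of the other shifts. Across 20 alternatives, the interactions of the 81 genes followed in this way kept their direction. These fits share most of their libraries, so this is a weak check. The genes followed do not include il1b, ptgs2b, mmp9, igfbp1a or muc5.2. PDIA3 lost its call in 12 of the 20 (adjusted p up to 0.156), among them thinning, with 0.0627. The median interactions of 25 lists were refitted in the 20 alternatives. In 468 of these refits the median moved by no more than the SD of the list's level between replicate libraries, and in 32 by more. These refits overlap in the same way, and leaving out a single pool can move a group mean only in part, so this too is a weak check. Depth limits the low genes of the 24 × 32 °C libraries most.

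Taken over all 4 groups, same-numbered pools were no more alike than others. Deviations of same-numbered libraries had a median correlation of -0.012 over 18 pairs (-0.208 to 0.182), against 0.014 over 36 pairs of other numbers (-0.2 to 0.169). Between LPS larvae and controls at 24 × 32 °C, same-numbered pools had -0.032, 0.182 and 0.16, and other pairs -0.2 to 0.032. At 24 × 24 °C these values were 0.117, -0.1 and 0.018, and -0.129 to 0.112. Pairing within a temperature is thus not excluded. With the replicate number as a block, edgeR called 2 interactions, 348 LPS effects at 24 × 32 °C, 98 at 24 × 24 °C, and 548 and 1080 differences between temperatures in LPS larvae and controls.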
